A study of Rattus norvegicus with 19 samples.

Results

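Mdm2 encodes the ubiquitin ligase that marks the tumour suppressor p53 for degradation, and its own gene is a p53 target, so that the pair form a negative feedback loop. When p53 is stabilised by DNA damage or other stress, Mdm2 usually rises together with the other targets of p53, among them the cell cycle inhibitor Cdkn1a. Mdm2 was examined here beside its partner Mdm4 and 7 p53 targets (Cdkn1a, Ccng1, Fas, Btg2, Phlda3, Tp53inp1 and Sesn1) in the liver of rats given pregnenolone-16α-carbonitrile. This compound (PCN) is a synthetic steroid and an agonist of the pregnane X receptor of rodents. The members were all probe sets annotated to exactly 1 of these 9 genes, which gave 15 of the 31256 probe sets on 2 Affymetrix array types. They covered 8 genes. The first array type held 8 of the probe sets and the second held 7. Btg2, an antiproliferative gene, had no probe set annotated to it alone and was not analysed here.

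The PCN group were adult rats injected once into the peritoneum at 100 mg/kg, and the corn oil group were adult rats injected with corn oil alone. All had been fasted overnight, and livers were taken 8 h after the dose. Strain, sex and exact age are not given in the sources used here. The first array type had 5 PCN and 5 corn oil arrays, and the second had 5 PCN and 4 corn oil arrays. By their titles the same numbered replicates were put on both, so the second array type is taken as another measurement of these animals and not as a further set of replicates. Corn oil replicate 2 of the second type was not analysed here. Whole liver was measured, so fewer cells of a type and less RNA per cell cannot be told apart.

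Values are log2 expression per probe set, and differences are PCN minus corn oil on that scale. Mdm2 was chosen by its measured rise in PCN over corn oil on both array types, and its companions were assembled with the same results known. Their differences are therefore given as a description, with the moderated standard error and 95% interval of limma, and without p-values. A probe set is said to have passed the threshold where its adjusted p was below 0.05 among all probe sets tested on its array type. All 8 hepatocyte markers measured on the first array type, among them Alb and Apoa1, passed the intensity filter (a mean at or above the 30th percentile). Of 39 markers of 8 liver and blood cell types tested by the first array type, and 11 by the second, limma called 0 with either (5 and 5 at an unadjusted p below 0.05). The summed log2 level of the 2 red cell markers measured on the first array type ran from 13.59 to 14.26 in PCN and from 14.07 to 14.43 in corn oil. That of 9 stellate cell and fibroblast markers ran from 12.78 to 13.16 in PCN and from 12.32 to 12.91 in corn oil. The 2 lymphocyte markers measured on the second array type were both lower at an unadjusted p below 0.05, with sums of 7.79 to 7.95 in PCN and 8.00 to 8.10 in corn oil. The 8 measured on the first ran from 10.17 to 10.51 in PCN and from 10.05 to 10.54 in corn oil. On the second array type 1 hepatocyte, 1 macrophage and 1 of 4 endothelial markers were higher at an unadjusted p below 0.05. The hepatocyte marker ran from 12.15 to 12.45 in PCN and from 11.74 to 12.15 in corn oil. On the first array type the 1 neutrophil marker tested was higher at that level, by 0.58. The 4 neutrophil markers measured there summed to 8.36 to 9.03 in PCN and 8.23 to 8.45 in corn oil. The part of these cell types in the results below was not tested. The array medians of the second type were 6.25 to 6.32 in PCN and lay below all those in corn oil, at 6.32 to 6.33, a difference of -0.051 (two-sided exact permutation p = 0.0159). Corn oil replicate 2 stood apart on the first array type in the difference between 3′ and 5′ control probe sets, a measure of RNA integrity. For Actb this difference was 0.41 to 0.56 in PCN arrays and 0.43 to 0.55 in 4 of the corn oil arrays, but 2.28 in corn oil replicate 2. For Gapdh it was 0.56 to 0.85 in PCN arrays, 0.71 to 0.79 in the remaining corn oil arrays and 2.02 in corn oil replicate 2.

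Mdm2 was higher after PCN by all 3 of its probe sets, with differences of 1.82 to 2.29, or 3.53-fold to 4.90-fold. The brightest probe set on the first array type, 1384427_at, read 11.24, 10.28, 10.95, 10.95 and 10.47 in PCN replicates 1 to 5. It read 8.84, 7.98, 8.32, 8.64 and 8.64 in corn oil replicates 1 to 5. Every PCN array thus lay well above every corn oil array, a separation upward that 3.99% of all probe sets tested on that array type showed. The means were 10.78 ± 0.39 in PCN and 8.49 ± 0.34 in corn oil (SD, n = 5 each), a difference of 2.29 ± 0.20 (SE, 95% interval 1.86 to 2.73). By size of the difference it ranked 5 from the top among all probe sets of that array type other than controls.

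The other Mdm2 probe set on the first array type, 1383485_at, gave nearly the same result at a lower level. It read 10.10, 9.28, 9.60, 9.58 and 9.22 in PCN replicates 1 to 5 and 7.83, 6.83, 7.51, 7.39 and 7.67 in corn oil replicates 1 to 5. Its groups did not overlap either, and its difference was 2.11 ± 0.20 (SE, 95% interval 1.67 to 2.54, n = 5 each), or 4.31-fold. The differences of these probe sets, both read on the same arrays, lay 0.18 apart. On the second array type, 1383288_at read 11.22, 10.53, 10.65, 10.79 and 9.96 in PCN replicates 1 to 5. It read 8.82, 8.75, 8.95 and 8.72 in corn oil replicates 1, 3, 4 and 5. The difference was 1.82 ± 0.20 (SE, 95% interval 1.40 to 2.25, n = 5 PCN and 4 corn oil), or 3.53-fold, which ranked 4 from the top there. The groups did not overlap, as for 5.06% of probe sets of that type in this direction.

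The response varied between animals in a similar order on all 3 probe sets. PCN replicate 1 was the highest PCN array each time, at 6.77-fold, 6.31-fold and 5.31-fold over the corn oil mean by 1384427_at, 1383485_at and 1383288_at. PCN replicates 2 and 5 were the lowest, at 3.47-fold and 3.97-fold by 1384427_at, 3.56-fold and 3.42-fold by 1383485_at, and 3.30-fold and 2.22-fold by 1383288_at. Corn oil replicate 2, the array with the large 3′ to 5′ difference, was the lowest corn oil array by both probe sets of the first type. Without it the difference of 1384427_at was 2.17 ± 0.19 (SE) and that of 1383485_at 1.95 ± 0.17 (SE). A term was also fitted for 2 sets of arrays seen in earlier work on these data. They were corn oil replicate 1 with PCN replicates 1, 3, 4 and 5 against the rest, with corn oil replicate 2 left out. With that term the difference of 1384427_at was 1.91 ± 0.18 (SE) and that of 1383485_at 1.77 ± 0.18 (SE). Only PCN replicate 2 and corn oil replicate 1 lie apart from their group in this split, so set and treatment can hardly be told apart.

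**Figure D1:**
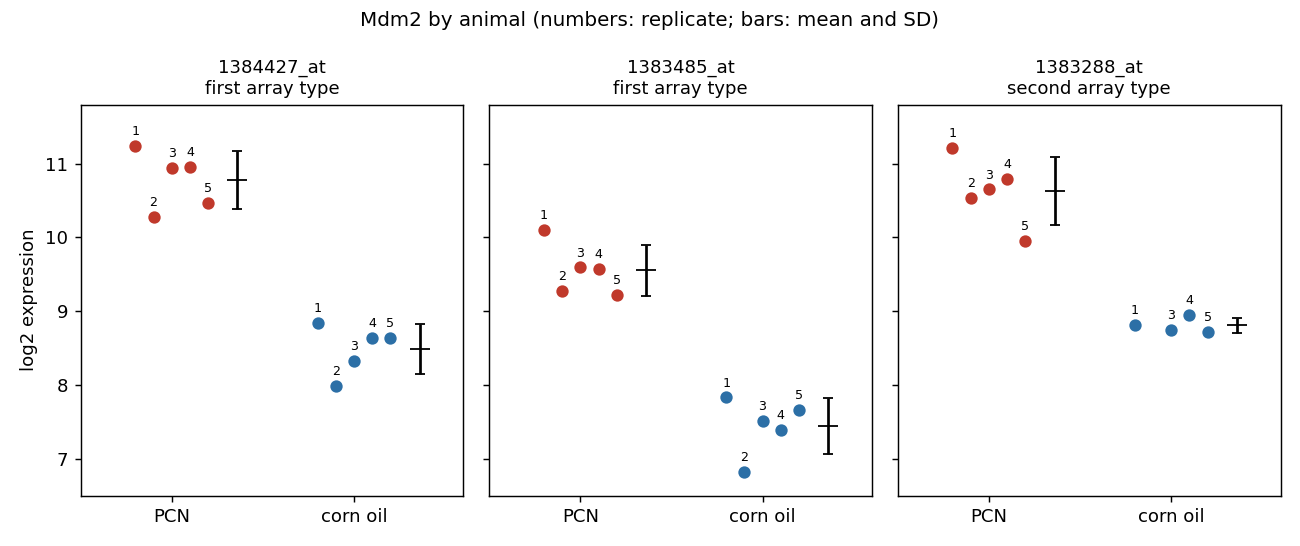
Log2 expression of Mdm2 by its 3 probe sets, each point 1 array, numbered by animal, with PCN left of corn oil; black bars show the mean and SD (5 PCN and 5 corn oil arrays of the first type, 5 and 4 of the second). Every PCN array lies above every corn oil array in each panel, and PCN replicate 1 is the highest throughout.

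Promoter windows are shown for Mdm2, which rose, and for Cdkn1a and Sesn1, p53 targets that did not pass the threshold. Each runs from 250 bases before to 50 after 1 start site given for the gene in RefSeq (GRCr8), 5′ to 3′ on the gene's strand. That site lies inside the full RefSeq locus for all 3, by 966 bases for Mdm2, 112 for Cdkn1a and 71801 for Sesn1, so other start sites of these genes may not be covered. Windows were at hand for 8 of the 9 genes. Capitals mark matches to the p53 half-site consensus, the 10-letter motif of which p53 binds a pair, and to AGGTCA and AGTTCA, half-sites that the pregnane X receptor uses as repeats.
Mdm2, chr7:55200742-55201041, minus strand: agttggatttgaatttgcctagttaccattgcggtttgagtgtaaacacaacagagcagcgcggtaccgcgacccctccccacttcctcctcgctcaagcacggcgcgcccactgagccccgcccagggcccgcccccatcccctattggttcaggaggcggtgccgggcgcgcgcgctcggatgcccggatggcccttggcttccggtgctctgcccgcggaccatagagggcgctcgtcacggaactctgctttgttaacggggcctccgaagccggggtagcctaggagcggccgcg
Cdkn1a, chr20:7150682-7150981, plus strand: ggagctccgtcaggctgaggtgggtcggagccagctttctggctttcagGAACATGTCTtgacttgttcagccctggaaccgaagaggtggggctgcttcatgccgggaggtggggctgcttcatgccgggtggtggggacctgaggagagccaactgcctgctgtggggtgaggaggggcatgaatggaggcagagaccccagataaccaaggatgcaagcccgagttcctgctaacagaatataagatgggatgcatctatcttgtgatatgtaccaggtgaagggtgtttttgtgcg
Sesn1, chr20:46948469-46948768, plus strand: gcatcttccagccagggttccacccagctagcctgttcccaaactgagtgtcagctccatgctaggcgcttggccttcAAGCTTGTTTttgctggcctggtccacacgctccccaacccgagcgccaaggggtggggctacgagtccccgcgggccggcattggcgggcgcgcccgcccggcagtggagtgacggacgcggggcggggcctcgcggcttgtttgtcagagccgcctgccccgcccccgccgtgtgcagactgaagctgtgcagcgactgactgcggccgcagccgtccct
The Mdm2 window held no match to any of the 3 motifs on either strand. The Cdkn1a window held 1 p53 half-site match starting at position -201 from its window's start site, and the Sesn1 window 1 at -172. The Ccng1 window had 1 at -232 and an AGTTCA at -188, and the Btg2 window had an AGGTCA at -185. The windows of Mdm4, Fas and Phlda3, like that of Mdm2, held no match to any of these motifs. A p53 half-site match was thus present in 3 of the 8 windows. Among 33469 windows of this length in the table, 7.98% held a p53 half-site match, 16.2% AGGTCA and 14.5% AGTTCA. In human and mouse the p53 sites of Mdm2 lie in the first intron. Exon and intron bounds of rat Mdm2 were not used here, so the place of this window relative to that intron is not given. A match is a string of letters and no evidence of binding.

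Of the 15 member probe sets, 12 passed the intensity filter, 6 on each array type. On the first array type the 2 Mdm2 probe sets rose and none of the others passed the threshold, against 3.25% of all 11106 probe sets tested. On the second the Mdm2 probe set rose and 1 Fas probe set fell, against 5.4% of 10693. By direction, 2.31% of all probe sets on the first array type were called higher and 0.945% lower. The second had 3.76% higher and 1.64% lower. The median difference over all probe sets tested was 5.54e-05 for the first array type and -0.03 for the second. The 12 probe sets of the other 7 genes had differences between -0.64 and 0.30, 4 above 0 and 8 below. None of their intervals reached the lowest bound of any Mdm2 probe set, which was 1.40. Since the members were chosen with this comparison known, nothing is read from these counts.

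**Figure D2:**
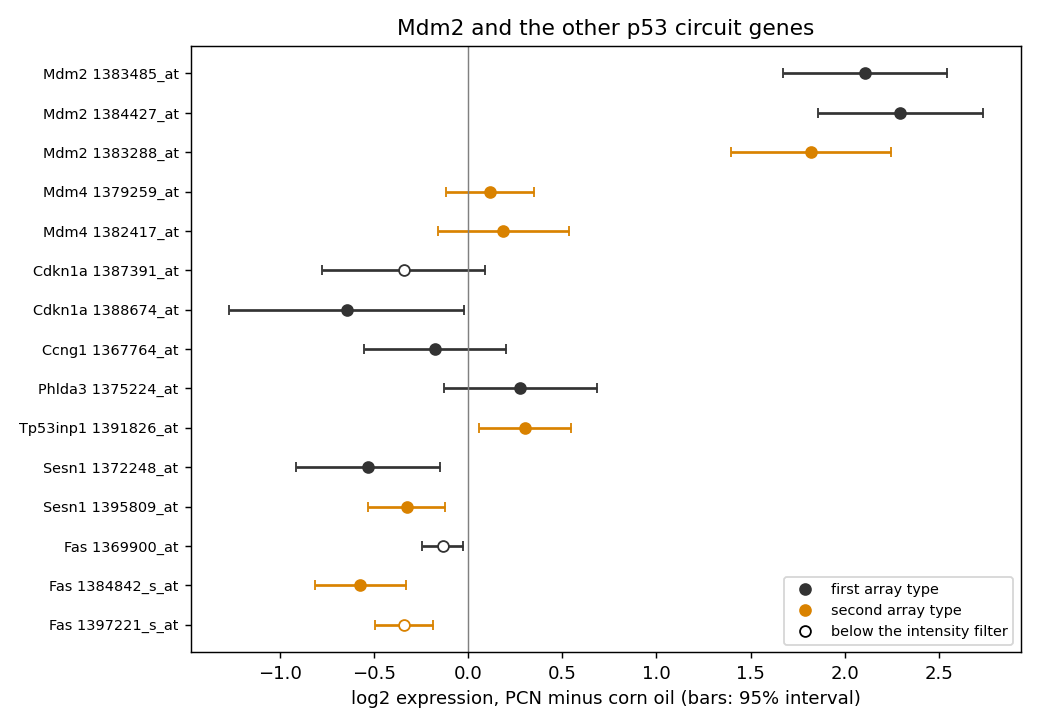
Difference in log2 expression, PCN minus corn oil, for all 15 probe sets, with 95% intervals from limma (first array type black, second orange; open points lie below the intensity filter). The 3 Mdm2 probe sets lie between 1.82 and 2.29, and all others lie between -0.64 and 0.30.

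Mdm4, a relative of Mdm2 that binds p53 and restrains its activity, was measured by 2 probe sets on the second array type. The brighter, 1379259_at, read 8.10, 8.54, 8.29, 8.55 and 8.18 in PCN replicates 1 to 5 and 8.19, 8.28, 8.11 and 8.28 in corn oil replicates 1, 3, 4 and 5. The groups overlapped, and the difference was 0.12 ± 0.11 (SE, 95% interval -0.11 to 0.35). The dimmer, 1382417_at, read 5.72 to 6.67 in PCN and 5.79 to 6.11 in corn oil, with a difference of 0.19 ± 0.16 (SE, 95% interval -0.16 to 0.54). PCN replicate 2 was its highest array and PCN replicate 5 its lowest, so the PCN group spanned the corn oil values. The signs of both depended on the scaling, since they were -0.16 and -0.09 with arrays centred on the 100 probe sets that both types share, and quantile normalization gave -0.01 for 1379259_at.

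Cdkn1a, which encodes the p21 inhibitor of cyclin-dependent kinases and is the best known arrest gene under p53, was not higher after PCN. Its brighter probe set, 1388674_at, read 8.09, 8.09, 7.94, 7.78 and 7.83 in PCN replicates 1 to 5 and 8.03, 8.36, 9.90, 8.51 and 8.14 in corn oil replicates 1 to 5. The PCN arrays were close together, while corn oil replicate 3 stood far above all other arrays. The difference was -0.64 ± 0.29 (SE, 95% interval -1.27 to -0.02, n = 5 each) and did not pass the threshold. Without corn oil replicate 3 it was -0.32 ± 0.12 (SE), again short of it. The dimmer probe set, 1387391_at, lay below the intensity filter and was also highest in corn oil replicate 3, at 7.53. It read 6.17 to 6.51 in PCN and 6.22 to 6.86 in the remaining corn oil group, with a difference of -0.34 ± 0.20 (SE, 95% interval -0.77 to 0.09) over all 10 arrays and -0.13 ± 0.12 (SE) without corn oil replicate 3. Both intervals end far below the Mdm2 differences.

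Ccng1, cyclin G1, is a p53 target that acts back on Mdm2 through a protein phosphatase. It read 8.14, 7.87, 8.18, 8.72 and 8.02 in PCN replicates 1 to 5 and 8.26, 8.10, 8.79, 8.10 and 8.57 in corn oil replicates 1 to 5. The groups overlapped widely, with a difference of -0.18 ± 0.17 (SE, 95% interval -0.55 to 0.20). Phlda3, which restrains Akt signalling, read 9.42, 8.73, 9.09, 9.03 and 8.83 in PCN replicates 1 to 5 and 9.05, 8.49, 9.29, 8.47 and 8.43 in corn oil replicates 1 to 5. PCN replicate 1 was its highest array, but corn oil replicate 3 came next, and the difference was 0.28 ± 0.19 (SE, 95% interval -0.13 to 0.68). With the term for 2 sets of arrays the Phlda3 difference was 0.02. Tp53inp1, a stress gene that promotes autophagy and cell death, read 7.61, 7.58, 7.15, 7.42 and 7.21 in PCN replicates 1 to 5. It read 6.90 to 7.26 in the 4 corn oil arrays. Its difference of 0.30 ± 0.11 (SE, 95% interval 0.06 to 0.55) was the largest upward one outside Mdm2. The groups overlapped and it did not pass the threshold. With arrays centred on the common probe sets it was 0.02.

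Sesn1 and Fas lay on the other side. Sesn1, a sestrin that restrains TORC1 signalling, read 8.56, 8.50, 8.39, 9.07 and 8.77 in PCN replicates 1 to 5 by 1372248_at. It read 9.35, 9.67, 8.70, 9.09 and 9.15 in corn oil replicates 1 to 5. Corn oil replicate 3 alone among the corn oil arrays lay within the PCN range, and the difference was -0.53 ± 0.18 (SE, 95% interval -0.91 to -0.15). By 1395809_at of the second array type it read 7.30, 7.35, 7.06, 7.24 and 7.29 in PCN replicates 1 to 5 and 7.59, 7.32, 7.63 and 7.76 in corn oil replicates 1, 3, 4 and 5. Corn oil replicate 3 was again the array that overlapped, and the difference was -0.32 ± 0.09 (SE, 95% interval -0.53 to -0.12). Neither probe set passed the threshold with the values as deposited. Without corn oil replicate 3 the second one did, at -0.41, and with array weights too, at -0.33. With arrays centred on the common probe sets both passed it, at -0.61 by 1372248_at and -0.60 by 1395809_at.

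Fas, the death receptor also called CD95, was lower after PCN by all 3 probe sets, and in each the groups did not overlap. The brightest, 1384842_s_at on the second array type, read 7.65, 7.58, 7.53, 7.62 and 7.77 in PCN replicates 1 to 5 and 7.87, 8.21, 8.22 and 8.50 in corn oil replicates 1, 3, 4 and 5. It fell by 0.57 on the log2 scale, or 1.49-fold (SE 0.11, 95% interval -0.81 to -0.33), and passed the threshold. That call was lost without corn oil replicate 4, where the difference was -0.57 ± 0.13 (SE). With arrays scaled to equal medians it was -0.52 and still past the threshold. The summed lymphocyte markers were also lower without overlap on these arrays, and their part in the Fas difference was not tested. The dimmer 1397221_s_at read 4.98 to 5.30 in PCN and 5.36 to 5.56 in corn oil, a difference of -0.34 ± 0.07 (SE). On the first array type 1369900_at read 5.70 to 5.84 in PCN and 5.86 to 6.01 in corn oil, a difference of -0.14 ± 0.05 (SE). The last 2 lay below the intensity filter. Without overlap and in the lower direction were 2.05% of all probe sets tested by the first array type, and 5.32% by the second. The ending of the names of both Fas probe sets on the second array type marks a design whose probes may match more than 1 transcript.

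**Figure D3:**
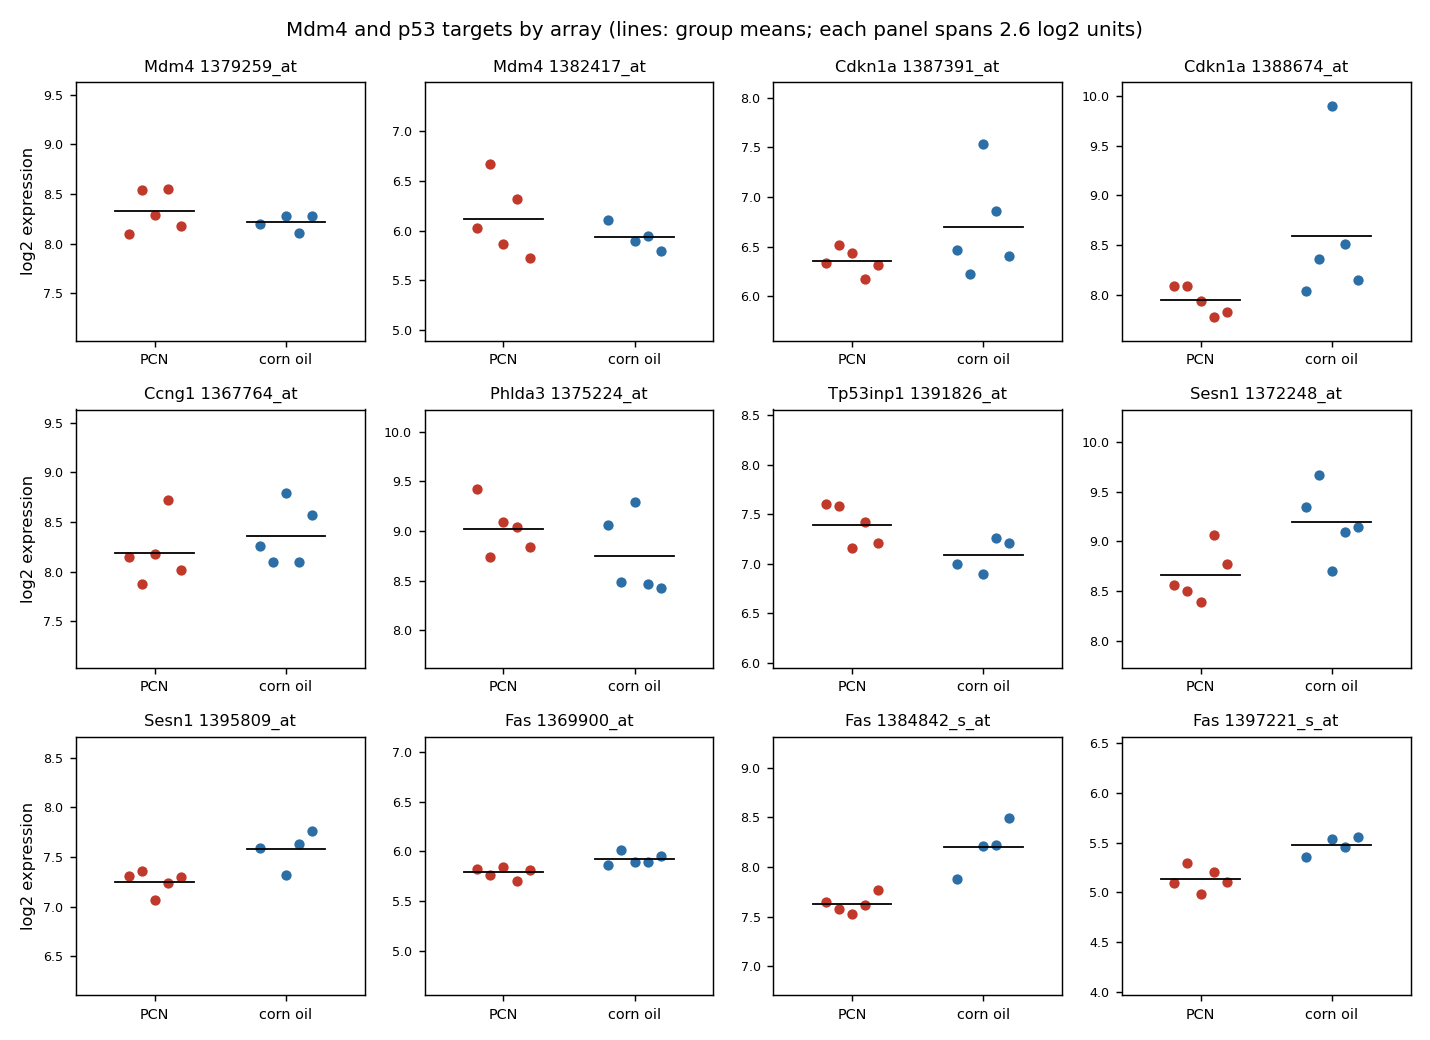
Log2 expression of Mdm4 and 6 p53 targets by probe set, each point 1 array, PCN left of corn oil, with lines at the group means and the same span of log2 units in every panel. The groups are apart for the 3 Fas probe sets and overlap for the others, and corn oil replicate 3 is the high point of both Cdkn1a panels.

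The rest of the p53 pathway was described from 4 lists that leave out the genes above. They hold regulators of p53, and targets in the cell cycle, in cell death, and in repair, redox control and metabolism. Of 118 listed genes, 66 could be tested on the first array type, each by its brightest probe set, and 22 on the second. On the first array type 2 genes rose and 2 fell, against 2.31% and 0.945% of all probe sets tested. The median difference of the 66 was -0.03, and 28 were above 0. On the second, 1 gene rose, against 3.76% of all probe sets, and 0 fell in limma (3 had a negative difference with an unadjusted p below 0.05). There the median difference of the 22 was -0.05. The lists were not sorted by the direction in which p53 acts on each gene, so these medians and counts do not measure its activity. A target in these lists is a gene listed as such, and whether p53 acts on it in rat liver was not tested.

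Among 13 cell cycle targets tested on the first array type 2 rose (3 higher and 1 lower at an unadjusted p below 0.05). Ccnd1, cyclin D1, which drives entry into the cycle, read 11.22, 10.25, 11.25, 11.45 and 10.88 in PCN replicates 1 to 5 and 9.77, 10.39, 9.82, 9.75 and 10.34 in corn oil replicates 1 to 5. It rose 1.99-fold (log2 difference 0.996 ± 0.22 SE, adjusted p = 0.031, limma), although PCN replicate 2 lay within the corn oil range. Its call was lost without any of corn oil replicates 1, 3 and 4 or PCN replicates 1, 3, 4 and 5, with adjusted p values from limma of 0.0545 to 0.0878. With the replicate block the adjusted p was 0.0973. The call was also lost with the term for 2 sets of arrays, at a difference of 0.87 (adjusted p = 0.0909, limma). Ptp4a1, a growth-promoting phosphatase, read 11.68, 12.24, 11.85, 11.98 and 12.00 in PCN replicates 1 to 5 and 11.30, 10.93, 10.93, 11.49 and 11.42 in corn oil replicates 1 to 5. The groups did not overlap, and it rose 1.66-fold (log2 difference 0.73 ± 0.14 SE, adjusted p = 0.0157, limma). On the same array type Gadd45a was higher and Ei24 lower at an unadjusted p below 0.05, with overlapping groups, and neither passed the threshold. Their differences were 0.75 ± 0.28 (SE, adjusted p = 0.184, limma) and -0.34 ± 0.10 (SE, adjusted p = 0.0781, limma). For the second array type limma called 0 of 5 cell cycle targets (1 higher and 1 lower at an unadjusted p below 0.05). The smallest p values there belonged to Ckap2, a cytoskeletal protein, with a difference of -0.26 (adjusted p = 0.0779, limma), and the kinase Plk3, with 0.31 (adjusted p = 0.0979).

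Of 19 death targets tested on the first array type 2 fell and limma called 0 higher (0 also at an unadjusted p below 0.05). Steap3, an endosomal metalloreductase, read 7.51, 7.51, 7.68, 7.39 and 7.66 in PCN replicates 1 to 5 and 8.09, 8.24, 8.00, 8.10 and 8.15 in corn oil replicates 1 to 5. Its groups did not overlap, and it fell by 0.57 on the log2 scale, or 1.48-fold (SE 0.08, adjusted p = 0.0033, limma). Bcl2l11, the pro-apoptotic protein Bim, was 7.65 ± 0.27 in PCN and 8.63 ± 0.39 in corn oil (SD, n = 5 each), without overlap. It fell by 0.99 on the log2 scale (SE 0.18, adjusted p = 0.0147, limma), a call that was lost with the term for 2 sets of arrays (adjusted p = 0.0609). By the second array type limma called 0 of 5 (2 lower at an unadjusted p below 0.05), with Aen, a p53-induced nuclease, at -0.37 (adjusted p = 0.0893) and Siva1 at -0.15 (adjusted p = 0.158).

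Among 20 regulators tested on the first array type limma called 0 (2 higher and 2 lower at an unadjusted p below 0.05). The smallest p values were those of Trim24, a ubiquitin ligase for p53, at -0.48 (adjusted p = 0.17, limma), and Daxx, a nuclear partner of Mdm2, at 0.30 (adjusted p = 0.171). On the second, 1 of 6 rose, Yy1, a transcription factor that favours the binding of Mdm2 to p53. Yy1 read 9.91, 9.99, 9.95, 9.70 and 9.63 in PCN replicates 1 to 5 and 9.06, 9.35, 9.36 and 9.65 in corn oil replicates 1, 3, 4 and 5. It rose 1.39-fold with overlapping groups (log2 difference 0.48 ± 0.12 SE, adjusted p = 0.0466, limma). The Yy1 probe set tested on the first array type, 1375809_at, had a difference of -0.04 ± 0.11 (SE, 95% interval -0.29 to 0.20, adjusted p = 0.868, limma), with overlapping groups. The second array type's call was lost without any of corn oil replicates 1, 3 and 4 or PCN replicates 1, 2, 3 and 4 (adjusted p from 0.0632 to 0.126). It was also lost with no intensity filter, with the replicate block, and after quantile normalization, cyclic loess or centring on the common probe sets (adjusted p up to 0.182). In repair, redox control and metabolism limma called 0 of 14 on the first array type (1 higher and 2 lower at an unadjusted p below 0.05) and 0 of 6 on the second (1 higher). Abhd4 had a difference of 0.29 (adjusted p = 0.146) and Prkab1, a subunit of AMP-activated kinase, -0.40 (adjusted p = 0.198). From the second, Fbxw7 had 0.27 (adjusted p = 0.124) and the sestrin Sesn3 0.14 (adjusted p = 0.272).

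**Figure D4:**
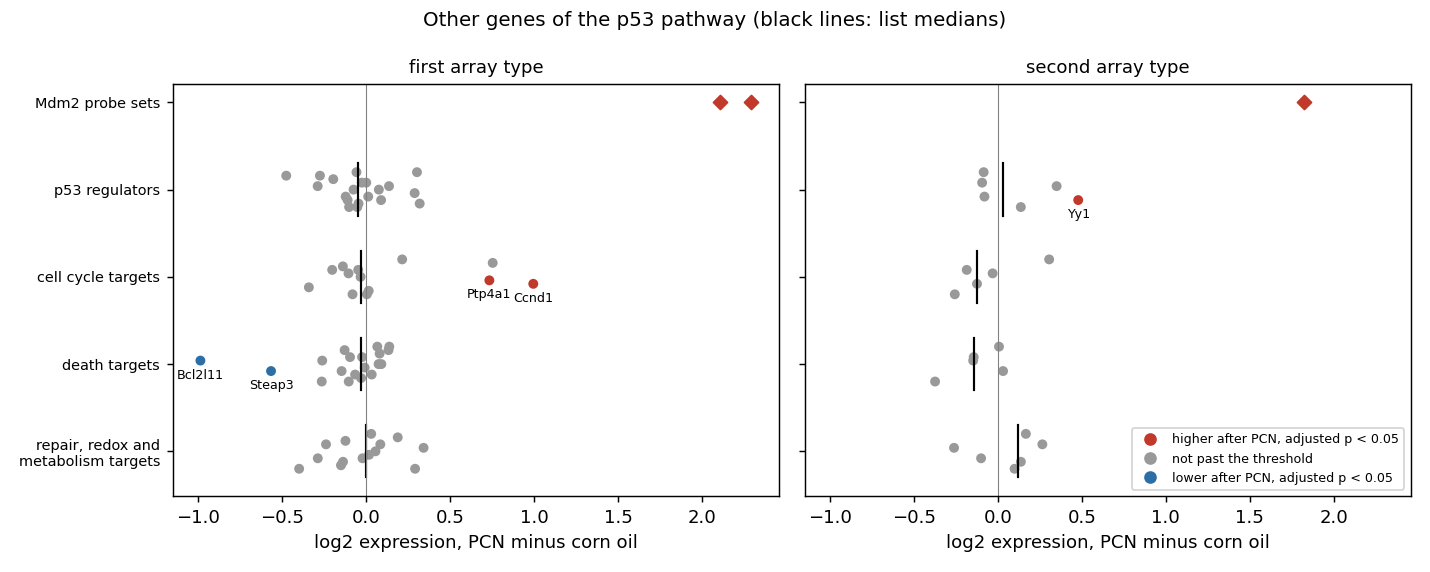
Difference in log2 expression, PCN minus corn oil, for Mdm2 probe sets (diamonds) and the other p53 pathway genes tested, each point 1 gene, by list and array type; black lines are list medians, red and blue points passed an adjusted p of 0.05 in limma. The list medians lie between -0.14 and 0.12, and the Mdm2 points at 1.82 to 2.29.

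The named genes with the profiles most like that of Mdm2 were picked by a measure that follows the size of the PCN difference. They were in none of the p53 pathway lists, where the largest tested rise was 0.996 (Ccnd1), so nothing is read from that. Likeness was the root mean square difference over all arrays of a type between values centred on their corn oil mean, so a small value means nearly the same change in each animal. On the first array type the other Mdm2 probe set was nearest to 1384427_at, at 0.19, among 9385 probe sets of single genes. The 6 nearest of other genes were Gpd1l1 (0.36), Alas1, which starts heme synthesis (0.47), Cyp26a1, which breaks down retinoic acid (0.48), the carboxylesterase Ces2c (0.52), the methyltransferase Inmt (0.54) and the scaffold Nherf1 (0.58). Those of the second array type were Gpd1l1 (0.24), the NF-kappaB cofactor Bcl3 (0.38), the retinol dehydrogenase Rdh10 (0.38), the chromatin remodeller Smarca2 (0.42), the amino acid transporter Slc43a1 (0.46) and Dennd2a (0.57), among 5916. Gpd1l1 was the nearest other gene on both, with differences of 1.99 ± 0.21 (SE) on the first and 2.07 ± 0.19 (SE) on the second. These values describe the same PCN difference that chose Mdm2 and come from shared animals.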

How the data were processed

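The authors deposited log2 expression values per probe set for 10 arrays of the first type and 9 of the second. The submitters' processing notes name MAS5 without a version. Summarization, background correction and normalization are not given in the sources used here. The base was inferred from the range of values, with extremes of 4.31 and 15.24 for the first array type, and of 3.10 and 14.05 for the second. Affymetrix cRNA labelling is stated per the labels' protocols.

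Values were analysed as deposited, each array type alone. The probe sets dropped were the 57 controls and those whose mean over all arrays was under the 30th percentile (6.67 and 5.51). Limma 3.58.1 in R 4.3.3 was fitted with treatment alone, moderated variances and an intensity trend, and p-values were two-sided with Benjamini-Hochberg adjustment over 11106 and 10693 probe sets. The procedure was tested on simulated data with 200 changed probe sets per array type. It recovered 191 with 17 false calls on the first array type, and 186 with 9 false calls on the second. The planted changes were all larger than any difference among the members other than Mdm2. They lay in probe sets brighter than the median, with independent noise. The recovery therefore does not speak for differences as small as those left uncalled here. Current symbols came from RefSeq (GRCr8) by gene identifier for 12754 of 12789 and 7530 of 7570 single-gene probe sets. The number of arrays limits the precision.

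The members, pathway lists and alternatives were chosen with earlier results of these data known. All member probe sets were named. From each pathway list, up to 4 called genes with the largest difference were named, or the 2 with the smallest p, and the 6 profiles nearest to Mdm2. Gadd45a and Ei24 were named besides, to account for the unadjusted counts of their list. Alternatives covered scaling, filter, a pseudocount of 16, variance model, block and single arrays. The labels describe biological replicates.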

Additional observations from a re-analysis of the deposited data

Results flagged for a closer look

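Among 96 groups of arrays examined, 7 held an array far from the others of its group, where chance alone marks about 1 group in 20. Cdkn1a by 1388674_at read 9.90 on the first array type in corn oil replicate 3, against 8.03 to 8.51 in the other corn oil arrays. In the same array Trim24 read 10.30 against 11.05 to 11.30 in the other corn oil arrays, and Ces2c read 8.81 against 9.39 to 9.48. Siva1 read 7.11 in corn oil replicate 5 of the second array type, against 6.95 to 6.97 in the others. On the first array type corn oil replicate 2 had 3′ minus 5′ differences of 2.28 for Actb and 2.02 for Gapdh, against 0.43 to 0.55 and 0.71 to 0.79 in the rest of its group. The median of all probe sets was 6.32 in PCN replicate 5 of the second array type and 6.25 to 6.27 in the other PCN arrays, and was 6.32 to 6.33 in corn oil, above every PCN array.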

How the results depend on the processing

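Each member was recomputed under up to 22 alternatives. All 64 alternative values of the 3 Mdm2 probe sets stayed above 0 and past the threshold, from 1.54 to 2.42. The value that moved by more than 1 SD between replicates was that of 1384427_at with the term for 2 sets of arrays, at 1.91. Values of the other members changed sign 3 times, all for Mdm4. Without single arrays, 2 members were called on the first array type each time and 1 to 3 on the second, where the low count came without corn oil replicate 4. The members called numbered 3 on each array type with centring on the common probe sets. On the second they also numbered 3 with no filter and with array weights. Pathway genes called on the first array type numbered 4, with 3 to 4 without single arrays, 2 with the term for 2 sets of arrays, 3 with the replicate block, 5 with centring on the common probe sets and 6 with array weights. On the second array type the count of 1 became 0 with no filter, after quantile normalization, after cyclic loess and with the replicate block, 3 with array weights, and 0 to 2 without single arrays. Centring on the common probe sets moved the median difference of all probe sets there to -0.31 and made the count 13, all lower. Mdm2 by 1383288_at was 1.54 under it. That centring also moved the share of higher calls to 3.23% on the second array type, against 69.7% as deposited, and to 45.9% against 70.9% on the first. The share was 57.9% after quantile normalization on the first and 87.8% after median scaling on the second. Replicate numbers did not pair the arrays: same-numbered deviations correlated at -0.30 to 0.28 on the first array type and 0.02 to 0.20 on the second, best with their own number in 2 of 5 and 1 of 4 cases. With the replicate block the members called numbered 2 on each array type. All 15 member probe sets rest on 4 or 5 arrays per group, and 3 of them lay below the intensity filter.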
